A study of Mus musculus with 2 samples.

Results

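Mir132 and Mir212 are neighbouring microRNA genes of mouse chromosome 11 whose precursors are cut from one transcript. They were chosen by name, as the pair controlled by CREB, the transcription factor that answers neuronal activity and calcium signals. They make up 2 of the 2202 microRNA genes counted in 2 small-RNA libraries of hippocampus, the brain region of memory formation. Both libraries come from wild-type female mice of strain B6NCrl, are labelled controls, and are called biological replicates 1 and 2 of 1 group. The tissue is given as layer of hippocampus with no layer named, and no treatment, genetic change or age is given. The labels give each library its own biosample but the same donor record, and nothing says whether separate animals were used, so the spread between the libraries may be technical. With 1 group there was no treated, stimulated or mutant arm, so activity itself was not varied. The questions the design allows are how abundant reads of the pair were, in what proportion the 2 genes supplied them, and how far both libraries gave the same answer.

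As background, a microRNA gene is transcribed into a longer RNA that folds into a hairpin, and the hairpin is trimmed to short mature strands, named 5p and 3p after the arm they come from. Bases 2 to 8 of a mature strand, the seed, pair with target messenger RNAs and lower their translation and stability. The Mir132 and Mir212 transcript is a textbook CREB target, induced in neurons by synaptic activity and by the growth factor BDNF. miR-132 is known for promoting dendrite growth and spine formation. No messenger RNA was measured here.

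The 3p strands are shown because their shared seed makes the 2 genes one family, while the rest of the strand keeps them apart in the counts. The sequences are RefSeq's for GRCm38.p6, written 5′ to 3′, with the seed in capitals.
mmu-miR-132-3p: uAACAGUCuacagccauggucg
mmu-miR-212-3p: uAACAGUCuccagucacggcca
mmu-miR-132-5p: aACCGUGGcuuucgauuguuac
mmu-miR-212-5p: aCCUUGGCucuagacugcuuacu
The 3p strands are both 22 bases long and identical at 17 positions, among them bases 1 to 9. Counted from 1 at the 5′ end, with miR-132-3p given first, they differ by A10C, C14U, U17C, U20C and G22A. Among 1738 mature mouse microRNAs of the RefSeq table, the seed AACAGUC occurred in these 2 strands and in no other. The 5p seeds, ACCGUGG and CCUUGGC, differ from each other and were each found in 1 strand of the table.

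The hairpins show where those strands sit. The 3p strand is in capitals here.
Mir132 hairpin, chr11:75173682-75173747, plus strand: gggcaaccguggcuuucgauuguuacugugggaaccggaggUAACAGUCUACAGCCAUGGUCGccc
Mir212 hairpin, chr11:75173388-75173478, plus strand: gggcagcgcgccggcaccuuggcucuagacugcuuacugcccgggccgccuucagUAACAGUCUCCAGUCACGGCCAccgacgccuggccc
The Mir132 hairpin (ENSMUSG00000065537.2) has 66 bases and that of Mir212 (ENSMUSG00000065590.1) has 91. RefSeq's letters are identical to those of the GENCODE M21 transcripts. G and C made up 57.6% of the Mir132 hairpin and 69.2% of the Mir212 hairpin, against a median of 50.8% over the 2202 hairpins of the files. RNAfold gave a minimum free energy of -37.2 kcal/mol with 52 paired bases for Mir132, and of -41.5 kcal/mol with 64 paired bases for Mir212, which are computed folds and not measurements.

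Both hairpins lie in intron 1 of 1700016P03Rik, a non-coding transcript of 3 exons on the same strand (GENCODE M21, mm10, chr11:75172560-75177633). That intron has 1380 bases. Mir212 comes first in the direction of transcription, 828 bases after the start of the host, and Mir132 follows after a gap of 203 bases. The nearest protein-coding genes are Ovca2, Hic1 and Dph1, at 2195, 3869 and 3896 bases from the pair, all on the opposite strand.

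**Figure D1:**
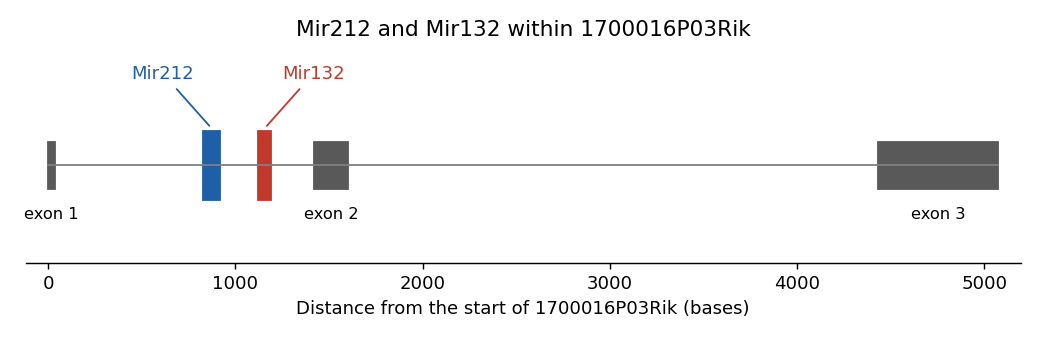
Map of the non-coding host gene 1700016P03Rik, with distance from its start in bases on the x axis. Grey boxes are its 3 exons and coloured boxes the hairpins of Mir212 and Mir132, which both lie in intron 1, 203 bases apart.

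The sequences bear on how well the pair could be counted. Reads that fit more than 1 place were assigned to no gene in these files, and they made up 43.9% and 45.9% of the libraries. The longest stretch that the 2 hairpins share is GUAACAGUCU, of 10 bases. With any other hairpin of the files, Mir132 shared at most 11 bases and Mir212 at most 12, fewer than a mature strand has. Mir124a-1, a copy of the neuronal microRNA miR-124, shares 32 bases with its sister genes and had 8 and 5 counts, so its level is uncertain. Mir132 and Mir212 shared no stretch of that length with another hairpin of the files. No search was made for copies elsewhere in the genome.

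By reads assigned to 1 gene, Mir132 was one of the most abundant microRNA genes of both libraries. It had 101197 counts in replicate 1 and 73997 in replicate 2, on the strand of the gene. Scaled to CPM, the counts per 1000000 sense counts over microRNA genes, these were 15073 and 12540, with a mean of 13806 ± 1791 CPM (SD, n = 2). It ranked 13 in each library and 14 by the mean of both, in an order where genes with shared reads may stand too low. Its share of the sense counts was 1.51% (exact 95% Clopper-Pearson interval 1.498 to 1.517) in replicate 1 and 1.25% (1.245 to 1.263) in replicate 2. These intervals do not overlap, and they cover only the counting error within a library. The reads carry no molecular identifiers, so even that error may be understated.

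Mir212 was present at a far lower level. It had 5155 counts in replicate 1 and 4098 in replicate 2, which is 768 and 694 CPM, with a mean of 731 ± 51.9 CPM (SD, n = 2). It ranked 102 and 103 in the libraries and 103 by the mean. Its share of the sense counts was 0.0768% (exact 95% interval 0.0747 to 0.0789) and 0.0694% (0.0673 to 0.0716). Both genes stood a little higher in replicate 1 on this scale, by 1.20-fold for Mir132 and 1.11-fold for Mir212.

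**Figure D2:**
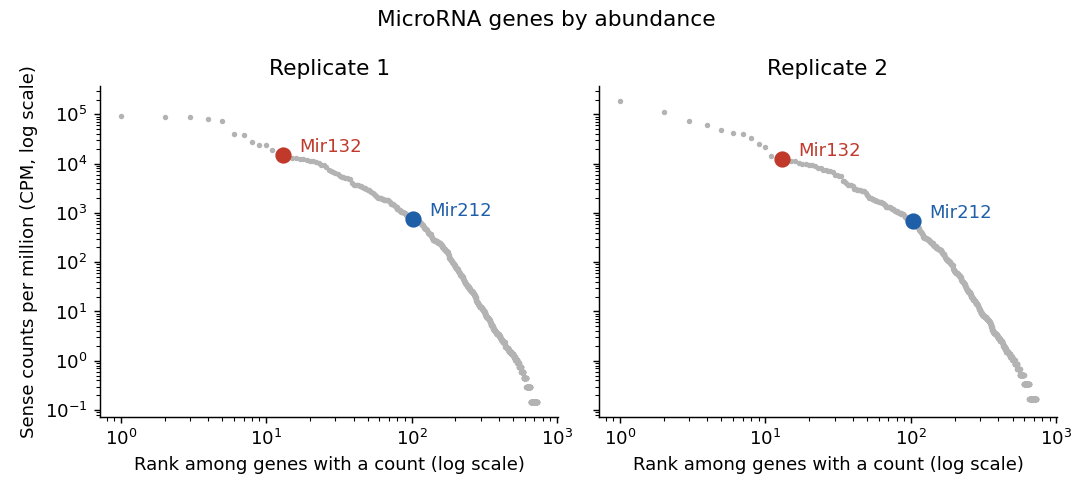
CPM of every microRNA gene with a count, against its rank, on log axes, 1 panel per replicate. Mir132 sits at rank 13 in both panels, and Mir212 at ranks 102 and 103.

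The place of Mir132 in the order of genes is known only to within its spread. The ranges of 9 genes lay wholly above its own, namely Mir139, Mir127, Mir744, Mir23b and 5 genes of the let-7 family (Mirlet7b, Mirlet7i, Mirlet7g, Mirlet7d and Mirlet7e). Another 8 genes had ranges that overlapped it, namely Mir125a, Mir770, Mir99a, Mir652, Mir23a, Mir149, Mir382 and Mir221. The ranges alone do not settle their order against Mir132. Within each library Mir99a stood above Mir132, and Mir149, Mir382 and Mir221 stood below it. Mir125a, Mir770, Mir652 and Mir23a changed sides between the libraries. Mir212 had 93 genes above its range and 17 overlapping it, among them Mir134 and Mir129-1. Counting no gene that shares 18 or more bases with another hairpin, Mir132 ranked 10 and Mir212 ranked 78 of 1074 genes. Of the 137 microRNA genes on chromosome 11, 1 had a higher mean level than Mir132 and 7 a higher one than Mir212.

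By likeness of level over the 2 libraries (distance in log2(CPM + 1)), the genes nearest to Mir132 were Mir23a, Mir99a and Mir652. Mir23a stood at 13121 ± 322 CPM (SD, n = 2), Mir99a at 15437 ± 1645 CPM and Mir652 at 15154 ± 4804 CPM. The genes nearest to Mir212 were Mir181c at 727 ± 33.7 CPM, Mir455 at 731 ± 77.1 CPM and Mir1843a at 738 ± 115 CPM. Mir23a and Mir181c lie on chromosome 8, Mir99a on chromosome 16, Mir652 on the X chromosome, Mir455 on chromosome 4 and Mir1843a on chromosome 12. Over only 2 libraries, this likeness is chiefly one of abundance.

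Although cut from one transcript, the 2 genes had very unequal read counts. No calibration against known amounts of the strands was used here, so their ratio is one of reads. Mir132 had 19.6 times the counts of Mir212 in replicate 1 and 18.1 times in replicate 2. Mir212 thus supplied 4.85% of the pair's 106352 counts in replicate 1 (exact 95% interval 4.72 to 4.98) and 5.25% of its 78095 counts in replicate 2 (5.09 to 5.41), with a mean of 5.05% ± 0.283 (SD, n = 2). This share needs no scaling of the libraries, because both genes come from the same reads. The mature strands of both genes are of similar length, so the reads were compared first without regard to length. Divided by hairpin length, Mir132 exceeded Mir212 by 27.1-fold and 24.9-fold per base, and the share of Mir212 was 3.56% and 3.86%. The counts are per gene, so how each splits into 5p and 3p strands is not known from them.

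The 2 libraries differed in this share by 0.400 percentage points. The odds of a read being Mir212 rather than Mir132 were 1.09 times as high in replicate 2 (95% interval 1.04 to 1.13 from counting error), and a 2-sided Fisher exact test of the 2 by 2 counts gave p = 0.000106. At this depth counting error is very small, and the test compares 2 libraries, not conditions. The fold between the genes, near 20 in each library, was far larger than its change from one to the other.

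The change in the ratio of the 2 genes was small beside that of other neighbours. On the log2 scale, Mir212 over Mir132 was -4.29 in replicate 1 and -4.17 in replicate 2, a difference of 0.12 (counting SE 0.03). A list of 20 pairs of linked microRNA genes held 17 whose genes both reached a mean of 10 counts. The other 16 had differences of 0.18 to 1.92 in size, with a median of 0.64, so every one of them was larger. Closest were Mir183 with Mir182, Mir127 with Mir433 and Mir181d with Mir181c, at sizes of 0.18, 0.21 and 0.27. The counting SE was 0.18 for Mir183 with Mir182, against 0.03 for Mir212 with Mir132, so the order of these is not settled. Farthest were Mir200c with Mir141, Mir34c with Mir34b and Mir200b with Mir429, at 1.92, 1.73 and 1.52. Some of those genes were far less deeply counted, with 16 and 40 counts for Mir141.

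**Figure D3:**
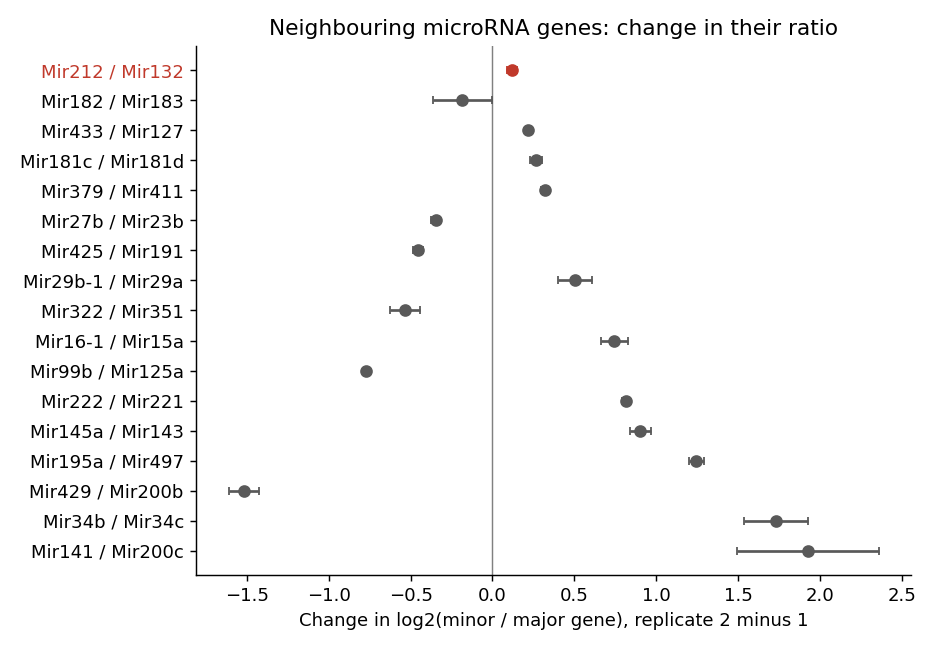
Change of the log2 ratio of the less abundant over the more abundant gene, replicate 2 minus replicate 1, for the 17 linked pairs with both genes tested (bars, counting SE). Mir212 over Mir132, in red, has the smallest change, 0.12, and Mir141 over Mir200c the largest, 1.92.

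A wider set softens this. It took every pair of neighbours on one strand with starts within 10 kb and a mean of 10 or more counts each, 108 pairs with Mir132 and Mir212. Of the other 107 pairs, 13 changed less than Mir132 and Mir212 and 94 more, with a median size of 0.44. Pairs next to it in this order were Mir322 with Mir503 at 0.12 and Mir300 with Mir376a at 0.13. Any 2 tested genes, linked or not, differed by a median of 0.60. In the same set the share within the pair differed between libraries for 70 pairs by the Fisher exact test with Benjamini-Hochberg adjustment over the 108, which is 64.8%, so that Mir132 and Mir212 (adjusted p = 0.000221) were on the side of the majority. The inequality of the pair was not exceptional either, since 27 of the 107 were more unequal in both libraries. The median fold between neighbours was 8.46 in replicate 1 and 7.49 in replicate 2.

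Between the libraries, Mir132 was slightly lower in replicate 2. The log2 ratio of replicate 2 over replicate 1 was -0.10 (counting SE 0.007) after scaling by the trimmed mean of M values (TMM), which lines up the bulk of genes, -0.11 with DESeq2 size factors and -0.27 with plain totals. The adjusted p of the Fisher exact test lay below the smallest number the software can hold, and an exact binomial test on TMM library sizes, added later, gave an adjusted p of 1.38e-49. Of the 466 genes that averaged at least 10 counts, the Fisher exact test called 57.5%, and 35.6% were lower under all 3 scalings as Mir132 was. The exact binomial test on TMM library sizes called 252 of the 466, with 137 lower and 115 higher. With totals 268 were called, 184 lower and 84 higher. A call alone therefore says little, and its size of 0.10 was small, with 17.2% of the 466 closer to 0 and a median size of 0.36.

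For Mir212 the direction depended on the scaling. Its log2 ratio was 0.02 under TMM (counting SE 0.03, 95% interval -0.04 to 0.08), 0.0060 with DESeq2 size factors and -0.14 with totals. The Fisher exact test, which works on totals, gave an adjusted p of 3.98e-06, but the exact binomial test on TMM library sizes gave 0.699. Of the tested genes, 3.86% passed the Fisher exact test with a sign that depended on the scaling, a count that leaves out genes that did not pass. For the tested genes as a whole the median stood at -0.02 by TMM, -0.03 with DESeq2 size factors and -0.18 with totals. Mir132 lay below that median and Mir212 above it. A change of scaling moves all ratios by the same amount, so this order could not differ between the 3 scalings. Mir139 had 585777 counts in replicate 1 and 1111464 in replicate 2. With it left out, the ratios were -0.11 for Mir132 and 0.0074 for Mir212, the latter with an adjusted p of 0.539 by the Fisher exact test.

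**Figure D4:**
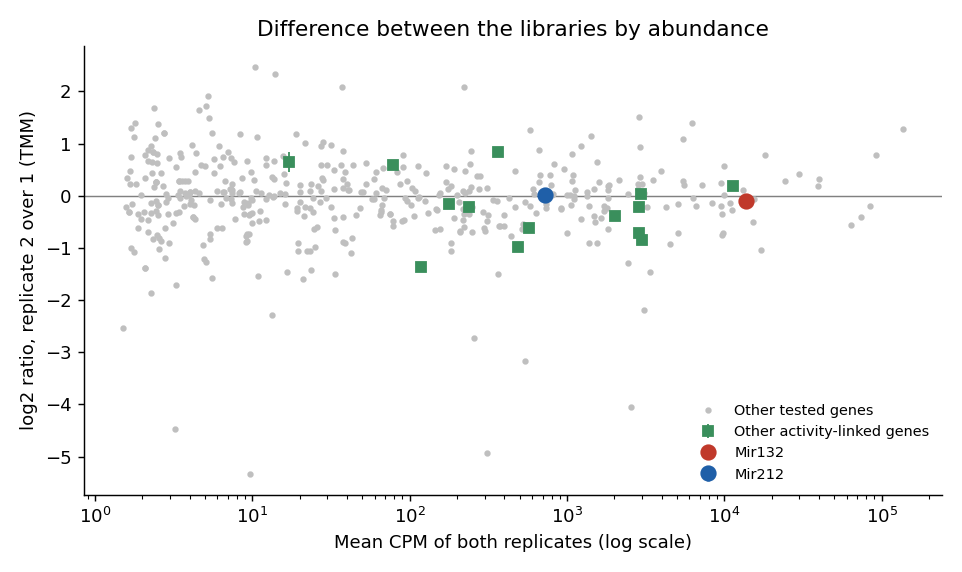
Log2 ratio of replicate 2 over replicate 1 under TMM against mean CPM on a log axis, for all 466 tested genes (bars on coloured points, counting SE). Mir132 at -0.10 and Mir212 at 0.02 lie near 0, while other activity-linked genes spread from -1.36 to 0.83.

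The pair was then set among 16 microRNA genes linked to neuronal activity or synapses, chosen with earlier results of these data known. All 16 reached a mean of 10 counts. Mir132 was the most abundant in both libraries, and together with Mir212 it made up 34.4% and 35.3% of the summed level of the list, which was 46031 and 37455 CPM. Mir191 followed at 11434 ± 160 CPM (SD, n = 2), with 11321 and 11547 CPM, both below the 2 values of Mir132. Then came Mir22 at 2989 ± 1427 CPM, Mir485 at 2938 ± 184 CPM, Mir138-2 at 2881 ± 534 CPM, Mir138-1 at 2870 ± 1197 CPM and Mir379 at 2028 ± 544 CPM. Mir22 and Mir138-1 had ranges that overlapped all others of these 5. In each library Mir379 was the lowest of the 5, and its range lay wholly below those of Mir485 and Mir138-2. miR-138 is known as a brake on dendritic spine size, and Mir379 begins the large imprinted cluster that also holds Mir134, Mir329, Mir381 and Mir485.

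Mir212 stood in the middle of this list, next above Mir134. miR-134, known as a dendritic microRNA that limits spine size, had 4900 and 2501 counts and 577 ± 216 CPM (SD, n = 2). It stood at 730 CPM in replicate 1 and 424 CPM in replicate 2, below Mir212 in both, by less in replicate 1. Mir381 followed at 491 ± 263 CPM, Mir329 at 365 ± 118 CPM, Mir181a-1 at 238 ± 44.2 CPM, Mir188 at 179 ± 27.4 CPM, Mir335 at 119 ± 81.6 CPM, Mir184 at 78.9 ± 16.2 CPM and Mir181a-2 at 17.1 ± 4.03 CPM. Mir138-1, Mir138-2, Mir181a-1 and Mir181a-2 share 24 to 28 bases with sister genes, so their levels leave out shared reads.

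**Figure D5:**
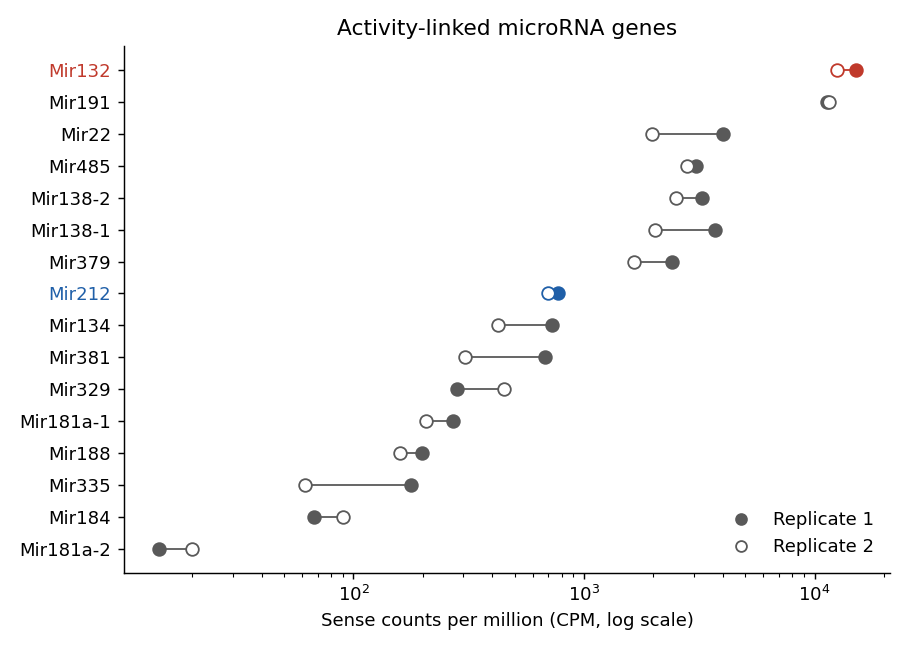
CPM of the 16 activity-linked genes on a log axis, filled circles for replicate 1 and open circles for replicate 2. Mir132 is at the top in both libraries with a narrow gap between its circles, and Mir212 lies midway with a narrower one than Mir134 below it.

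In that list, 16 of 16 genes passed the Fisher exact test, against 57.5% of all tested genes. All 16 have a mean of over 50 counts, and 76.8% passed among the 328 genes above that minimum. With DESeq2 size factors and an exact binomial test 14 of the 16 passed, and Mir212 and Mir485 did not (adjusted p = 0.915 and 0.192). Of the 16, 10 were lower in replicate 2 under 3 scalings and 4 higher, where 35.6% of all tested genes were lower and 18% higher. For Mir212 and Mir485 the sign depended on the scaling. The median log2 ratio of the list was -0.19 under TMM, against -0.02 for all tested genes. Mir335, at -1.36 (counting SE 0.09), Mir381 at -0.99 (SE 0.04) and Mir22 at -0.85 (SE 0.02) were farthest lower. Mir329 at 0.83 (SE 0.04), Mir181a-2 at 0.64 (SE 0.20) and Mir184 at 0.58 (SE 0.09) were farthest higher. Mir138-1 and Mir134 were lower at -0.72 and -0.62, Mir379 at -0.39, and Mir138-2 and Mir181a-1 both at -0.22, and Mir188 was lower at -0.15. Mir191 was higher at 0.19. Under TMM Mir212 had the smallest ratio in size of the list, followed by Mir485 at 0.03 and Mir132, whereas with totals Mir191 was nearest to 0, at 0.03.

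A second list held 23 genes of neuronal microRNAs. In each library Mir132 exceeded each of the 36 other genes of the 2 lists. That order is one of reads assigned to 1 gene. Only 5 of the 19 neuron genes tested share fewer than 18 bases with any other hairpin, and the levels of the others leave out shared reads. The neuron genes with the highest mean levels were Mir128-1 at 6248 ± 3570 CPM (SD, n = 2), Mir383 at 5070 ± 774 CPM, and Mir138-2 and Mir138-1, given above. Mir132 exceeded Mir128-1 by 4.05-fold in replicate 1 and 1.43-fold in replicate 2, and Mir383 by 2.68-fold and 2.77-fold. Mir128-1 shares 23 bases with its sister gene, so its level too leaves out shared reads. Of 19 neuron genes tested 8 were lower in replicate 2 and 8 higher, and 3 did not pass, where 35.6% of all tested genes were lower and 18% higher. Their median log2 ratio was 0.12 under TMM and -0.04 with totals.

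The libraries held 6713867 and 5901107 sense counts on microRNA genes, and 22 of the 23 neuron genes had a count in both. Mir124a-2, of the defining neuronal microRNA, had none, and the other Mir124a genes had 1 to 8. The Mir124a genes share 32 bases with sister genes, so these counts leave out shared reads and do not give the level of miR-124. Markers of other cell types differed between the libraries in their summed levels. The oligodendrocyte list had 7078 CPM in replicate 1 and 3193 in replicate 2, with 2 of 3 genes lower, where 35.6% of all tested genes were lower. Mir126a of endothelium had 6191 and 2897 CPM, and the mural list 2480 and 1504 CPM with 1 of 2 genes lower. The choroid plexus and ependyma list had 2056 and 1747 CPM with 3 of 5 genes lower and 1 higher. The higher one, Mir204, made up most of that sum, at 1532 and 1653 CPM. The erythrocyte list had 73.1 and 32.7 CPM with both tested genes lower. The microglia and leukocyte list had 2028 and 2246 CPM, with 4 of 6 genes lower and 2 higher. Their part in the ratio of Mir132 was not tested. The document followed for adapter trimming also differs between the libraries and cannot be told apart from them. In such bulk tissue fewer cells of a type cannot be told apart from less RNA per cell.

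The reads at the pair lay on 1 strand. On the strand opposite Mir132 there was 1 read in replicate 1 and 0 in replicate 2, and opposite Mir212 there were 0 in both, where a count of 0 allows up to 0.447 CPM in replicate 1 and 0.508 CPM in replicate 2. Counted without strand, Mir132 had 101198 and 73997 reads and Mir212 had 5155 and 4098. In this they differ from Mir191, listed at 0 when strand was ignored.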

How the data were processed

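RNA below 30 (the size range in the labels) was sequenced from 2 libraries of 1 group, and the adapter-trimming document differs between them, per the labels. The authors deposited raw counts per microRNA gene in 3 columns without headings for mm10 and GENCODE M21, per their deposited notes. For the aligner and counter, the name is not given in the sources used here. The values mark column 3 as sense, and 4 classes of unassigned reads (unmapped, several places, no feature, ambiguous) stayed out of library sizes. All 2202 identifiers matched GENCODE M21.

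CPM was computed over sense counts. Ratios add 0.5 counts and use TMM (edgeR 4.0.16), with DESeq2 1.42.0 size factors and totals as alternatives. As 1 group leaves no contrast, a 2-sided Fisher exact test (scipy 1.17.1) compared each gene with all other counts, Benjamini-Hochberg adjusted at 0.05 over the 466 genes averaging at least 10 counts. It covers counting error only and was tested on simulated data. Called higher or lower means one sign under 3 scalings. Shared stretches were sought on the written strand of GENCODE hairpins.

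Members, lists and pairs were chosen with earlier results of these data known. Named genes were the pair, the 3 genes nearest each in log2(CPM + 1), the activity-linked list, 4 leading neuron genes, and the pairs nearest and farthest in change. The promoter of the host was not analysed here.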

Additional observations from a re-analysis of the deposited data

How the results depend on the processing

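Per 1000000 of all reads, unassigned classes included, Mir132 stood at 5791 and Mir212 at 306, and without Mir139 in the total at 15982 and 848 CPM. Other levels (without strand, with TMM or with DESeq2 size factors) moved by less than 1 SD. Leaving out 1 replicate, the level was 12540 to 15073 CPM for Mir132 and 694 to 768 CPM for Mir212, and the share of Mir212 was 4.85 to 5.25%. Per base of hairpin that share was 3.71%. The ratio of Mir132 kept its direction and its call under all 8 alternatives. Among these, the filters on low counts and the change of test could alter the call but not the ratio. The ratio of Mir212 turned to -0.14 with totals. Mir212 no longer passed with DESeq2 size factors (0.0060), without Mir139 (0.0074) or by the exact binomial test on TMM library sizes (0.017), a test chosen after seeing the data. With totals Mir181c, Mir23a and Mir485 turned as well, to -0.095, -0.050 and -0.13. Without genes that share 18 or more bases 4 neuron genes passed, of 5 tested, and the median of that list was -0.15, against -0.14 with no filter on low counts and -0.044 with totals. The count of genes that differed was 248 to 268 under every alternative tried, but the number tested changed. The share ran from 33.5% of 787 genes with no filter on low counts to 76.8% of 328 with a mean of 50 or more. No paired analysis was possible because there is 1 group. Depth limits Mir212 more than Mir132, with counting SEs of 0.03 and 0.007 on the log2 scale.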

Other observations

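Other microRNA genes near the pair on chromosome 11 were few. The next tested one was Mir22, on the same strand and 289969 bases away, with 26845 and 11684 counts and a log2 ratio of -0.85 under TMM, against -0.10 for Mir132. Mir6926, on the opposite strand 305194 bases away, had 17 and 45 counts, and Mir423, also on the opposite strand and 1904317 bases away, had 6928 and 6594 counts and was higher in replicate 2 at 0.28.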
